A study of Homo sapiens with 26 samples.

Results

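KP1 is 1 of 10 guide RNA pools screened in RH4 cells, and its targets are mainly protein kinases and phosphatases. All targets named in its count files other than 7 control sets shared between pools were taken, which gave 99 target genes of the 956 in the 10 pools. RH4 is an established alveolar rhabdomyosarcoma line, from a childhood tumour with features of skeletal muscle, and its labels give the genotype PAX3-FOXO1+, which both arms shared. After infection and drug selection, cells were fixed at day 7, stained for myosin heavy chain (MYH) and sorted by flow cytometry. The 2 samples described here are the KP1 MYH high cells and the KP1 MYH low cells, with guide cassettes amplified from their genomic DNA. Both come from this 1 line, so the values describe RH4 alone.

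PAX3-FOXO1 is a fusion transcription factor that drives this tumour and holds its cells in a myoblast-like state. Myosin heavy chain is a contractile protein that muscle precursors make once they stop dividing and differentiate, so a guide that is more abundant in MYH high cells marks cells that stained more strongly after loss of its target. Among kinases, those of the cell cycle drive the divisions that precede differentiation, the p38 branch of the MAP kinases is known to promote the muscle programme, and the fibroblast growth factor receptors and ERK are known to oppose it in cultured myoblasts. Protein phosphatases remove the phosphates that these kinases add.

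The name of the pool holds for most, not all, of its members. By a classification made after their values were seen, 73 targets were kinases or pseudokinases, 10 protein phosphatases and 4 lipid phosphatases. A further 4 were growth factor ligands (HGF, PDGFB, PDGFD and VEGFB) and 3 were other enzymes, among them DUSP11 and RNGTT. The other 5 were ALPI, G6PC, CDKN2A, IRS1 and DPM1, of which CDKN2A encodes inhibitors of cell cycle kinases and IRS1 an adaptor of the insulin and IGF1 receptors. The pool held 995 guides to targets, 10 for each of 98 genes and 15 for INPPL1, beside 67 control guides.

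The MYH high sample held 124847129 counts and the MYH low sample 145187376. Each guide's share of the counts, scaled to 1000000 counts per sample (CPM), was divided, MYH high cells over MYH low cells, after adding 1 CPM to both, and its log2 was centred on the median of all guides of the pool. Each target was summarised by the median of its guides' ratios, so a positive value means more of its guides' reads in MYH high cells. The lowest guide count was 472 in MYH high cells and 602 in MYH low cells, and the counting error of a guide's log2 ratio had a median of 0.006. Each arm was 1 sample, so no difference below has a replicate check, no p-value can be given between arms, and the SD beside a value is the spread over guides to the same gene, which are not replicates. Exact 95% binomial intervals on CPM cover counting error only, and PCR reads without molecular identifiers are not independent molecules.

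The guides against the fusion gene were far more abundant in MYH high than in MYH low cells of KP1. The 10 PAX3_Fusion_DBD guides summed to 20187 CPM in MYH high cells, against 2798 CPM in MYH low cells, with a median of 2.80 on the log2 scale (SD 0.97 over the 10 guides), or 6.97-fold. The 11 FOXO1_fusion guides summed to 26194 CPM in MYH high cells and 5707 CPM in MYH low cells, a median of 2.25 (SD 0.75), or 4.76-fold. All 21 guides were above 0, from 0.70 to 3.83 for PAX3_Fusion_DBD and from 1.06 to 3.46 for FOXO1_fusion. Beside the other 9 pools, KP1 had the third lowest PAX3_Fusion_DBD value (others 2.71 to 4.53, median 3.24) and the lowest FOXO1_fusion value (others 2.25 to 4.23, median 2.71). These gaps between pools were not tested. The authors' deposited table counts 9 guides for PAX3_Fusion_DBD and 11 for PAX3_non-fusion where the count files hold 10 each, so 1 guide may be assigned differently there, and the sums here follow the count files.

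The other 5 control sets lay close to 0 in KP1. Negative controls had a median log2 ratio of 0.01 (SD 0.17, 5 of 10 guides above 0), PCNA, the sliding clamp of DNA replication, 0.05, and MYOD1, a transcription factor of the muscle lineage, 0.02. The guides to PAX3 and FOXO1 sequence outside the fusion had 0.05 and -0.01. Pool CF3 stood apart from the others in these 5 sets, with negative controls at 1.30. Without CF3 the negative controls of the other 8 pools lay between -0.11 and 0.07, which holds the KP1 value.

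**Figure D1:**
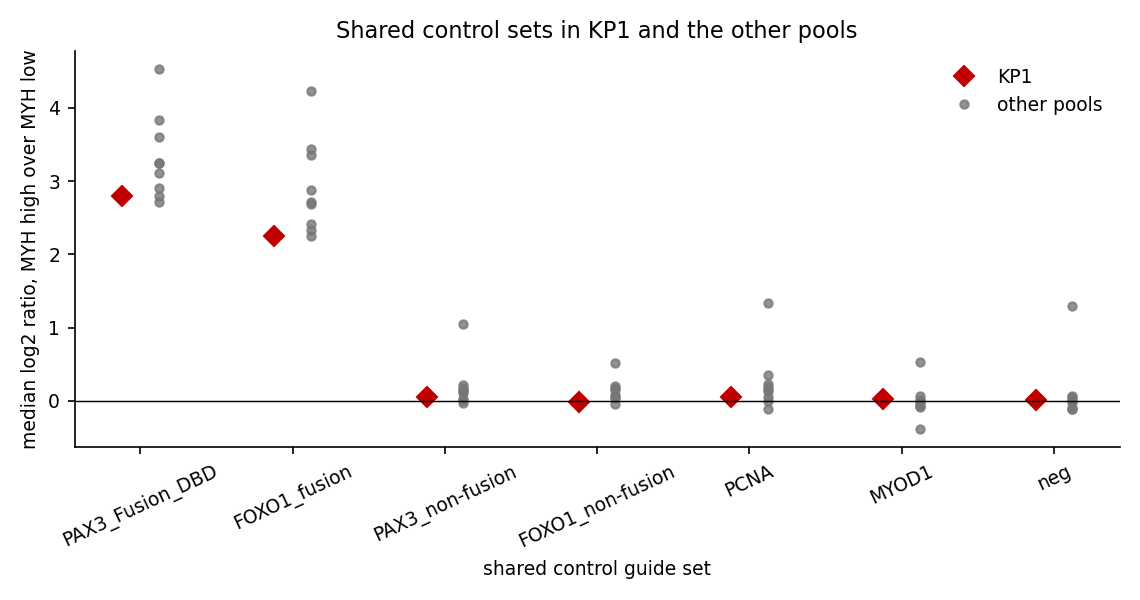
Median log2 ratio between MYH high and MYH low cells (high over low, y axis) of the 7 shared control guide sets (x axis) in KP1 (red diamonds) and in each other pool (grey points, up to 9). KP1 sits at the low end of both fusion sets, at 2.80 and 2.25, and near 0 in the other 5 sets.

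The fusion guides took 4.64% of all counts in MYH high cells and 0.85% in MYH low cells, so the CPM of the remaining guides were lower in MYH high cells by construction. The median log2 ratio before centring was -0.07, and that amount was removed from every guide. CPM values below are as measured, before centring, so a target with a centred ratio of 0 has slightly fewer CPM in MYH high cells.

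For most KP1 targets guide abundance was nearly equal in the 2 arms. Over the 99 targets the log2 ratio had a median of -0.01 and an SD of 0.068, with quartiles at -0.04 and 0.03, and 44 targets lay above 0 and 55 below. In all, 85 targets (85.9%) lay within 0.1 of 0, while 7 had 0.1 or more and 7 had -0.1 or less. The SD over the guides of a target, a spread of single guides, had a median of 0.11.

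A larger and a smaller size were used to describe a target as past a threshold, each with at least 80% of its guides on the same side of 0. At a log2 ratio of 0.3, or 1.23-fold, 0 of 99 targets (0%) were past it on the MYH high side and 0 of 99 (0%) on the MYH low side. At 0.2, or 1.15-fold, PLK1 was past it on the MYH high side (1.01% of targets) and WNK1 on the MYH low side (1.01%). CDC7 at 0.15 and FGFR4 at 0.14 came next on the high side and MAP3K4 at -0.12 on the low side, so both leading genes stood clear of their neighbours in the ranking by medians. From summed counts, where a single abundant guide weighs more, BMPR2 was highest at 0.39 (6 of 10 guides above 0), before PLK1 at 0.26, FGFR2 at 0.22, MAPK7 at 0.21 and PRKCA at 0.21. On the low side PIM3 came first at -0.26 (7 of 10 guides below 0), before WNK1 at -0.24 and TRPM7 at -0.20. Of these 8 targets, PLK1, FGFR2 and WNK1 had at least 80% of their guides on the same side.

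**Figure D2:**
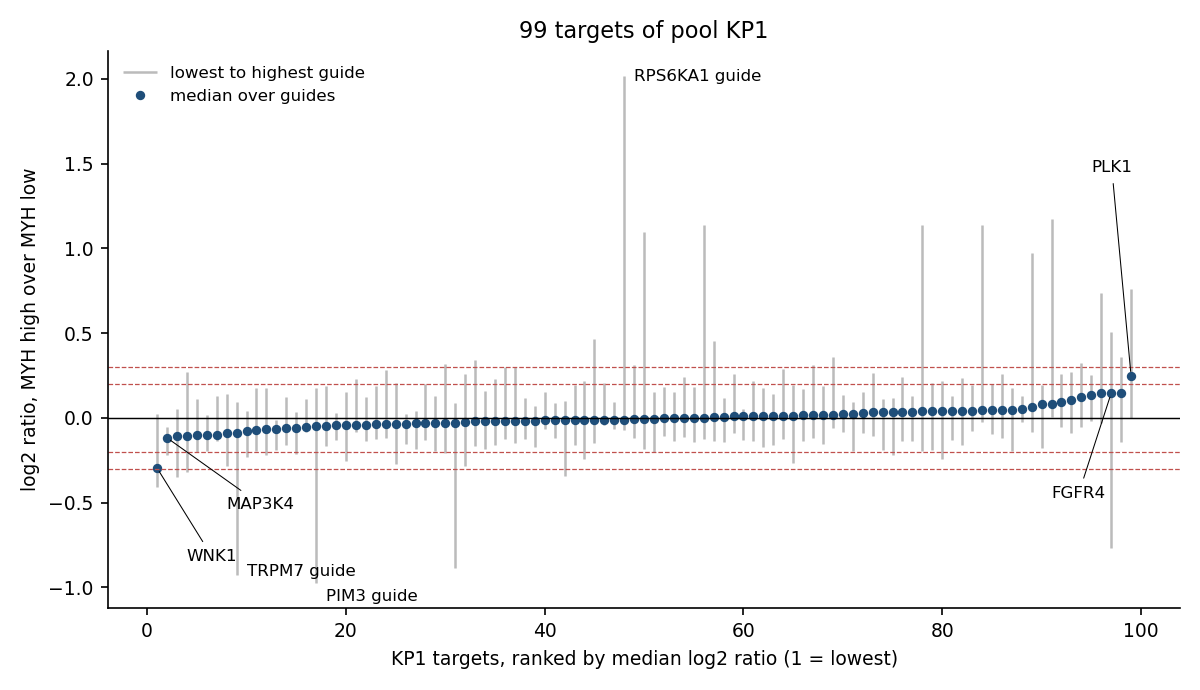
The 99 KP1 targets ranked by median log2 ratio, high over low (points, y axis), with a grey line from the lowest to the highest guide of each target. Dashed lines mark 0.2 and 0.3 on either side of 0. PLK1 (0.25) and WNK1 (-0.30) lie past 0.2, and the long lines in the middle are targets with a single distant guide, such as RPS6KA1 at 2.02.

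KP2, the other pool of this kind, held 98 targets and gave a wider range by the same measure. Its medians had an SD of 0.132 and lay between -0.31 and 0.71, where those of KP1 lay between -0.30 and 0.25. In KP2, 3 targets (3.06%) were past 0.3 on the MYH high side and 1 (1.02%) on the MYH low side. At 0.2 these were 7 (7.14%) and 3 (3.06%). Each pool is 1 sort with its own targets, so the difference in spread was not tested.

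**Figure D3:**
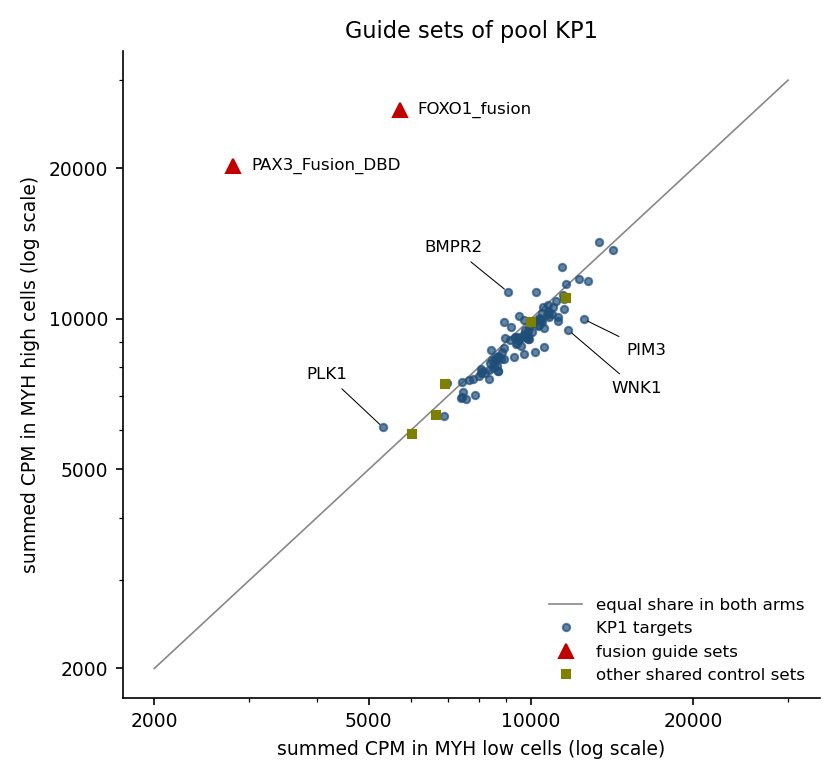
Summed CPM of the guides of each target or control set of KP1 in MYH high cells (y axis) and MYH low cells (x axis), both on log scales. Most targets (blue) and 5 control sets (olive) follow the line of equal share. BMPR2 and PLK1 lie furthest above it among targets and PIM3 and WNK1 furthest below, while the fusion guide sets (red triangles) lie far above at 20187 and 26194 CPM in MYH high cells.

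PLK1, the polo-like kinase that drives mitotic entry, spindle assembly and cytokinesis, had the highest value of the pool. Its guides summed to 6070 CPM (interval 6056 to 6083) in MYH high cells, against 5310 CPM (5298 to 5322) in MYH low cells, and the median log2 ratio was 0.25 (SD 0.21), or 1.19-fold. The lowest of its 10 guides lay at the line, at 474.7 CPM in MYH high cells and 496.9 CPM in MYH low cells, which is 0 after centring. The other 9 ran from 0.15 to 0.76, and 8 of them lay between 0.15 and 0.43. PLK1 also had the lowest summed CPM of the 99 targets in MYH high cells and in MYH low cells, where IGF1R was next at 6382 CPM and 6909 CPM. No sample of KP1 before the sort was analysed here, so its starting abundance is not known. Without centring PLK1 had 0.18, and without its highest guide 0.19, both short of 0.2.

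CDC7, WEE1 and PLK4, kinases of DNA replication and cell division, were among the 5 targets with the highest medians. CDC7, which fires replication origins, had 0.15 (SD 0.15, 8 of 10 guides above 0), with summed CPM of 9146 in MYH high cells and 8932 in MYH low cells. WEE1, which holds CDK1 inactive before mitosis, had 0.14 (SD 0.23, 8 of 10), with 7439 CPM in MYH high cells and 6971 CPM in MYH low cells. PLK4, which starts centriole duplication, had 0.14 (SD 0.092, 9 of 10), with 9613 CPM in MYH high cells and 9179 CPM in MYH low cells. All 3 genes had most of their guides above 0, and none was past 0.2. In WEE1 a single guide reached 0.74, at 892.0 CPM in MYH high cells and 560.3 CPM in MYH low cells, and the other 9 lay between -0.03 and 0.25.

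TLK2, a kinase of histone chaperones during replication, had 0.12 (9 of 10 guides above 0), and CIT, the citron kinase of cytokinesis, 0.08 (8 of 10). CHEK1, the replication checkpoint kinase, and VRK1, a chromatin kinase of dividing cells, had 0.04 each, and MASTL, which restrains PP2A in mitosis, 0.02. The 3 members below 0 were GSG2, the histone H3 kinase haspin, at -0.01, BUB1B, of the spindle checkpoint, at -0.07 (6 of 10 guides below 0), and TTK, which starts that checkpoint, at -0.09 (9 of 10 below 0). These 12 kinases, grouped after their values were seen, thus included 9 above 0 and 3 below, beside 44 of all 99 targets above 0. Their median was 0.06, beside -0.01 over all 99 targets. For CHEK1, VRK1 and MASTL the values were less than the 0.07 by which centring raised every ratio. The mitotic list alone, with PLK1, WEE1, PLK4, VRK1, MASTL, GSG2, BUB1B and TTK, had 5 above 0 and 3 below and a median of 0.03. CDC25A, the phosphatase that activates cell cycle CDKs, had -0.02, CDK3 had 0.01 and CDC14A -0.04, all chosen for mention after their values were seen.

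The 3 KP2 targets past 0.3 on the MYH high side were mitotic kinases, and that threshold by itself puts them above PLK1 at 0.25. Other mitotic kinases of KP2 are not given here. AURKA, the Aurora kinase of spindle poles, had 11370 CPM in MYH high cells and 8415 CPM in MYH low cells there, a log2 ratio of 0.71 (SD 0.51). CDK1, the kinase of mitotic entry, had 0.54 (SD 0.25) and AURKB, of the chromosomal passenger complex, 0.35 (SD 0.37). They were measured in another sort than PLK1, and the difference was not tested.

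**Figure D4:**
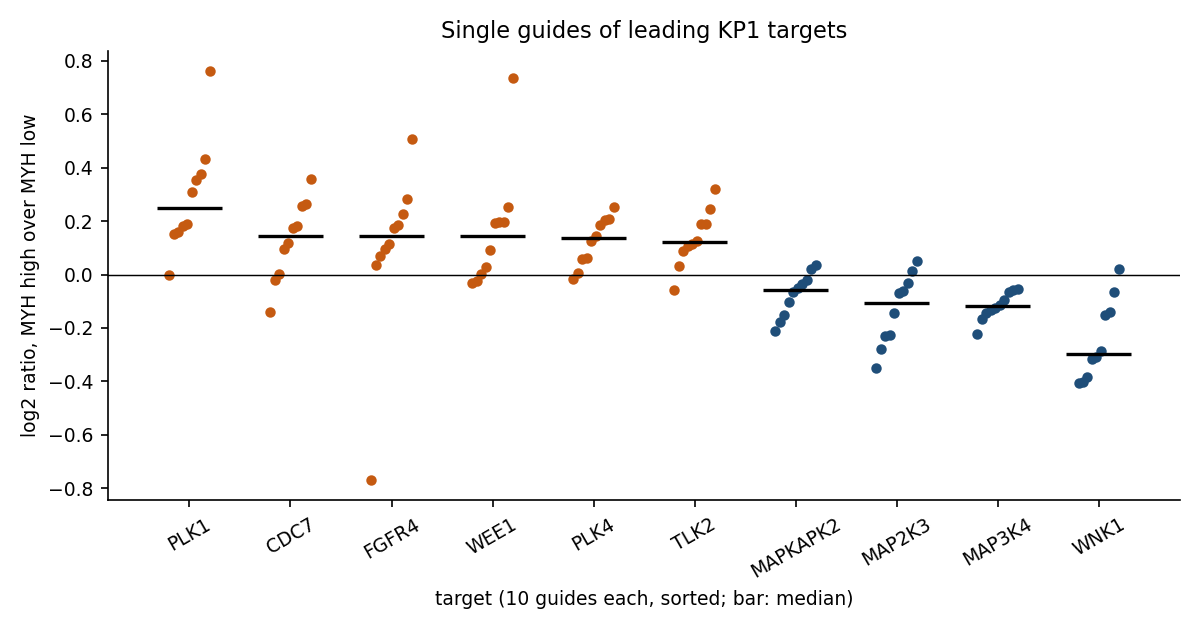
Log2 ratio, high over low (y axis), of each guide (points, 10 per target) of 6 KP1 targets at the high end (orange) and 4 at the low end (blue), with the median as a bar. WNK1 and MAP3K4 have nearly all guides on 1 side of 0, as has PLK1, and in WEE1 and FGFR4 single guides at 0.74 and -0.77 lie apart from the rest.

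WNK1, a kinase that governs cation-chloride cotransporters and cell volume through its substrates OXSR1 and STK39, had the lowest value of the pool. Its guides summed to 9490 CPM (9473 to 9507) in MYH high cells, against 11733 CPM (11716 to 11751) in MYH low cells, with a median log2 ratio of -0.30 (SD 0.15), or 0.814-fold. Of its 10 guides 9 lay below 0. The 6 lowest ran from -0.41 to -0.29, another 3 from -0.15 to -0.07, and the last lay at 0.02. WNK1 stayed past 0.2 in size under every alternative run except the one that asked for all guides on the same side, and with no centring or centring on the negative controls it had -0.36 and -0.31, past 0.3.

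MAP3K4 and MAP2K3, kinases of the p38 branch, had the lowest medians after WNK1. MAP3K4, which phosphorylates the MAP kinase kinases of the stress branches, had 9880 CPM in MYH high cells and 11234 CPM in MYH low cells, a log2 ratio of -0.12 (SD 0.053). All 10 of its guides were below 0, from -0.22 to -0.05, a narrow spread beside the median SD of 0.11 over the guides of a target. MAP2K3, which phosphorylates p38, had 8495 CPM in MYH high cells and 9723 CPM in MYH low cells, a log2 ratio of -0.11 (SD 0.13, 8 of 10 guides below 0). MAPKAPK2, a kinase activated by p38, had 7847 CPM in MYH high cells and 8697 CPM in MYH low cells, a log2 ratio of -0.06 (SD 0.083, 8 of 10 below 0). All 3 KP1 targets grouped here were below 0, beside 55 of all 99 targets below 0, and none was past 0.2. MAPK14, the p38 alpha kinase that links MAP2K3 to MAPKAPK2, was a target of KP2, with 8343 CPM in MYH high cells and 10536 CPM in MYH low cells, a log2 ratio of -0.31 (SD 0.118), and 10 of 10 guides below 0. These 4 genes were grouped after their values were seen. MAPK14 was the only KP2 target past 0.3 on the MYH low side (1 of 98, 1.02%). Any other p38 branch members of KP2 are not given here.

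The remaining MAP3K and MAP4K kinases were closer to 0, with MAP3K11 at -0.06, MAP3K12 at -0.03 and MAP4K1 at 0.03, and that list of 4 had a median of -0.04. The 6 targets on the list of ERK kinases, which counts the ERK5 kinase MAPK7 beside the ERK1 chain, lay within 0.06 of 0. MAP2K1, which phosphorylates ERK, had the lowest value, -0.05, MAP2K2, its paralog, -0.02, and MAPK3, the ERK1 kinase, -0.04. MAPK7, the ERK5 kinase, was highest at 0.04. RPS6KA1 and MKNK1, both activated by ERK, had -0.01 and 0.00, each with a single distant guide described below. The list had 2 members above 0 and 4 below and a median of -0.01, the same as all targets.

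The 4 fibroblast growth factor receptors all lay above 0, with a median of 0.06, beside 44 of all 99 targets above 0. This group was formed after their values were seen. FGFR4, which is known for high expression in rhabdomyosarcoma, had a log2 ratio of 0.14 (SD 0.33), with 9 of 10 guides above 0 between 0.03 and 0.51. Its remaining guide lay at -0.77, with 1250 CPM in MYH high cells and 2230 CPM in MYH low cells, the most abundant of the 10 in MYH low cells. That guide set the sum: over all guides FGFR4 had 9456 CPM in MYH high cells and 9871 CPM in MYH low cells, and its log2 ratio from summed counts was 0.0038.

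FGFR2 had 10 of 10 guides above 0 and a median of 0.08 (SD 0.35). Its sum was 12671 CPM in MYH high cells and 11423 CPM in MYH low cells, to which a single guide at 1.17 contributed 2170 CPM and 1008 CPM, while the other 9 lay between 0.01 and 0.14. From summed counts FGFR2 had 0.22 and was past 0.2. FGFR1 and FGFR3, with 6 of 10 guides above 0 each, had 0.04, less than the 0.07 by which centring raised every ratio. A second set of 10 FGFR2 guides, none shared with KP1, stood in pool DR1, where the median was 0.09 and 6 of 10 guides were above 0, from -0.23 to 0.29.

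The other receptor tyrosine kinases of the pool lay within 0.05 of 0. IGF1R, the receptor of insulin-like growth factors, was lowest at -0.04 (SD 0.043), with 9 of 10 guides below 0 and sums of 6382 CPM in MYH high cells and 6909 CPM in MYH low cells. IRS1, its adaptor, had -0.11 (SD 0.19, 7 of 10 below 0), with 7036 CPM in MYH high cells and 7881 CPM in MYH low cells. MET, the receptor of hepatocyte growth factor, had 0.01 and its ligand HGF -0.03. PDGFRB had -0.02, beside its ligands PDGFB at 0.03 and PDGFD at 0.01. KDR, a receptor of vascular endothelial growth factors, had -0.02, and VEGFB, a ligand of the same family that binds another receptor, -0.05. EPHA2, AXL, FLT4 and TIE1 lay between -0.01 and 0.03. Together the 12 receptor tyrosine kinases had 7 members above 0 and 5 below, with a median of 0.02. Of the receptors, ligands and adaptor in this paragraph, those other than IGF1R, IRS1 and KDR were chosen after their values were seen. The 5 cytoplasmic tyrosine kinases, from ABL1 at -0.04 to FGR at 0.04, had a median of 0.01.

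**Figure D5:**
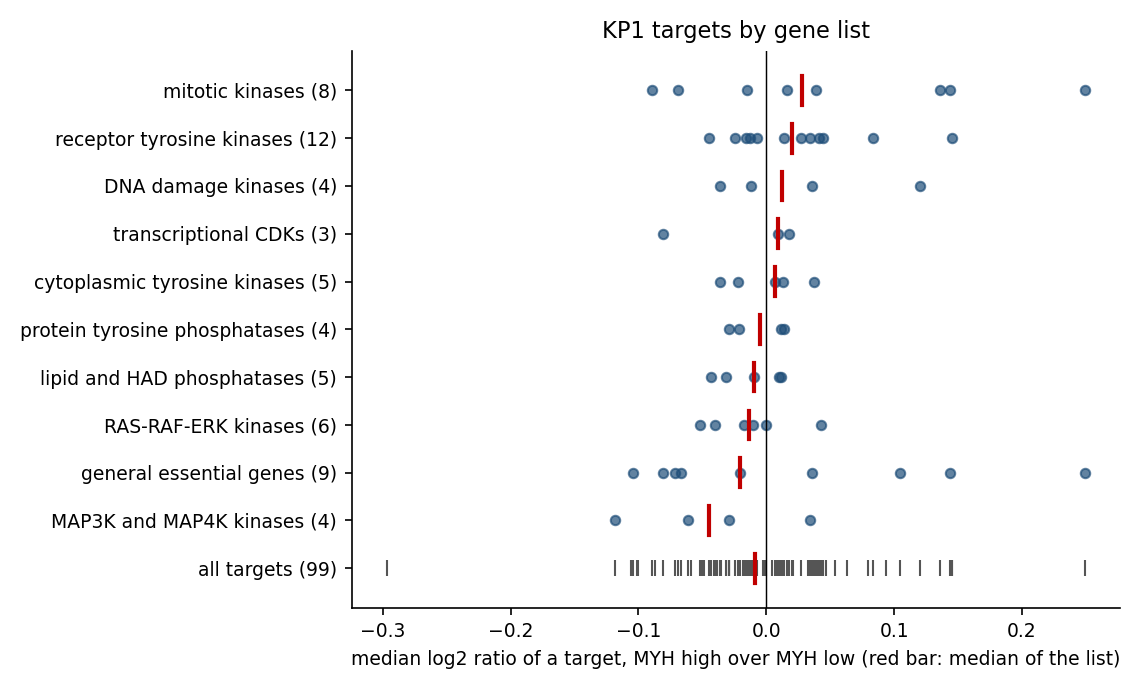
Median log2 ratio, high over low (x axis), of each KP1 target (points) in 10 gene lists with at least 3 targets (number of targets in brackets), with the median of the list as a red bar and all 99 targets in the bottom row. List medians lie between -0.04 and 0.03, and single members such as PLK1 and WNK1 lie further out than any list median.

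The pool held 8 targets with roles in RNA production or ribosome assembly, none of them past 0.2. RIOK2 and RIOK1, kinases of the maturing small ribosomal subunit, had -0.10 (SD 0.083, 9 of 10 guides below 0) and -0.07 (SD 0.11, 8 of 10). For RIOK2 the sums were 10095 CPM in MYH high cells and 11227 CPM in MYH low cells. CDK7, the kinase of TFIIH that phosphorylates RNA polymerase II and activates cell cycle CDKs, had -0.08 (8 of 10 below 0), with 7854 CPM in MYH high cells and 8702 CPM in MYH low cells. A separate set of 10 CDK7 guides in pool CF1 had a median of -0.14 (SD 0.21, 7 of 10 below 0). RNGTT, the mRNA capping enzyme, had -0.07 with 10 of 10 guides below 0, from -0.19 to -0.01, a gene chosen for that count after its values were seen.

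The other genes of these processes were nearer to 0. CDK13, a kinase of transcription elongation, had 0.01, SMG1, of nonsense-mediated decay, -0.01, and DUSP11, a phosphatase that trims RNA 5′ ends, 0.06, with a single guide at 0.97. CDK11A, a kinase of splicing and transcription, had 0.02 with 9 of 10 guides above 0, and 0.01 with 5 of 10 above 0 in pool CF2. CDK11A is nearly identical to CDK11B, and the guide sequences were not used here, so which of the paralogs its guides cut is uncertain. Of the 8 genes grouped here after their values were seen, 3 lay above 0 and 5 below, with a median of -0.04.

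PPP2CA, the main catalytic subunit of the phosphatase PP2A, was the highest of the 10 protein phosphatases at 0.10 (SD 0.11, 8 of 10 guides above 0), with 11722 CPM in MYH high cells and 11610 CPM in MYH low cells. The other 9 lay between -0.04 and 0.04, with 5 of the 10 above 0 and 5 below. PTPN11, the SHP2 phosphatase of growth factor signalling, had 0.01 and PPP1CB, a catalytic subunit of PP1, -0.02, both chosen after their values were seen. Among protein tyrosine phosphatases the values ran from -0.03 for PTPRR to 0.01 for PTPN22. The 5 lipid and HAD phosphatases ran from -0.04 for INPPL1, which dephosphorylates a phosphoinositide made by PI3 kinase, to 0.01 for the myotubularin MTMR8.

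A few other targets completed the ends of the ranking. On the high side GAK, a kinase of clathrin uncoating, had 0.09 (9 of 10 guides above 0) and CSNK1A1, the CK1 alpha kinase that marks beta-catenin for degradation, 0.05 (9 of 10). On the low side CDKN2A had -0.10 (SD 0.066, 9 of 10 below 0), with 7565 CPM in MYH high cells and 8363 CPM in MYH low cells, and DYRK2, a dual-specificity kinase, had -0.10 (SD 0.081, 9 of 10). TRPM7, an ion channel joined to a kinase domain, had -0.09 (7 of 10), and PRKDC, the catalytic subunit of DNA-dependent protein kinase, -0.04. ILK, the integrin-linked kinase, had -0.04 (9 of 10), and LIMK1, which phosphorylates cofilin, 0.02. The 9 targets on a list of general essential genes had 4 above 0 and 5 below, and a median of -0.02. Their extremes were 0.25 for PLK1 and -0.10 for RIOK2. That list need not hold every essential gene of the pool.

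Single guides lay much further from 0 than the medians of their targets. Of the 995 guides to targets, 15 (1.51%) had a log2 ratio of at least 0.5 in size, 11 on the MYH high side and 4 on the MYH low side. They fell on 13 targets, 11 with 1 such guide each, and FGFR4 and BMPR2 with 2. The farthest belonged to RPS6KA1, with 2216 CPM in MYH high cells against 572.3 CPM in MYH low cells, a log2 ratio of 2.02, while its other 9 guides lay between -0.07 and 0.06. MKNK1 had a guide at 1.14 (1346 CPM in MYH high cells, 638.7 CPM in MYH low cells) and MAPK7 a guide at 1.14 (2396 CPM in MYH high cells, 1139 CPM in MYH low cells). PRKCA, a classical protein kinase C, had a guide at 1.09, and its other 9 lay between -0.19 and 0.19. These guides thus stood alone among those to the same gene.

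On the low side PIM3, a serine/threonine kinase, had a guide at -0.97, with 1862 CPM in MYH high cells and 3824 CPM in MYH low cells, the most abundant guide of the pool in MYH low cells. TRPM7 had a guide at -0.93 and PTPRR a guide at -0.89. BMPR2, a receptor of bone morphogenetic proteins, was the only target with 2 guides beyond 0.5 on the same side, at 1.14 and 1.10. The first had 1972 CPM in MYH high cells and 939.1 CPM in MYH low cells, and the second 2843 CPM in MYH high cells and 1392 CPM in MYH low cells. Its other 8 guides lay between -0.20 and 0.44, and its median was 0.04. All 15 guides were well counted, with at least 299.6 CPM in MYH low cells and a median of 1008 CPM against 874.0 CPM over the other guides. RPS6KA1, PRKCA, PIM3 and BMPR2 were chosen for mention after their values were seen.

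The authors' deposited table of KP1 gives a score, beta, and false discovery rates per target from a model of the same 2 arms, so it is not an independent measurement. By the authors' deposited table, 3 targets had a permutation false discovery rate under 0.05, all with negative beta: WNK1 (-0.167), MAP2K3 (-0.090) and MAP3K4 (-0.079), each with a rate listed at 0. No target with a positive beta did, and of the 99 targets PLK1 had the highest beta in the authors' deposited table, 0.205, with a rate of 0.375. IRS1, RIOK2, CDKN2A and CDK7 followed in the authors' deposited table with a rate of 0.111, on the negative side. In the authors' deposited table the 2 sides had unlike rates at similar size. CDC7 at 0.092 and FGFR4 at 0.133 had 0.99 in the authors' deposited table, where MAP2K3 at -0.090 had 0. The fusion guide sets, which are not among the 99 targets, had positive beta in the authors' deposited table, each with a rate listed at 0. Their beta was 2.08 (PAX3_Fusion_DBD) and 1.52 (FOXO1_fusion) in the authors' deposited table. Why the 2 sides had unlike rates was not tested, and the all-negative set of 3 is not read as a result about the targets. The other rate, from a Wald test, was under 0.05 for 0 of the 99 targets, with 0.130 as the lowest in the authors' deposited table. No source used here states which logarithm beta is on. Across the 99 targets beta from the authors' deposited table had a Spearman coefficient of 0.868 with the medians given here, a description across genes that share both libraries.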

How the data were processed

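For each sample the authors deposited a count of raw reads for every guide, with FastQC and MAGeCK named in the submitters' processing notes and their versions not given there. Per the file headers, the authors' table for KP1 has a model score and its z, with p-values and the matching false discovery rates. Groups follow the labelled library and arm. CPM were computed over each sample's total, and log2 ratios were taken with a pseudocount of 1 CPM and centred on the median of all guides. The minimum of 10 counts over both arms removed 0 guides of KP1. No test exists between arms of 1 sample, so a size of 0.3 or 0.2 with 80% of guides on the same side was used. Depth (124847129 and 145187376 counts in MYH high and MYH low cells) gave a median counting error of 0.006, below the median SD over guides of 0.11. The largest counting error of a guide, 0.088, lay above the smallest SD over the guides of a target, 0.043. The procedure was run on simulated counts, with effects of 0.3 or more in size put in and no distant single guides. Targets given no effect were part of that run, but only mean estimates over targets with the same effect were checked. It therefore does not bear on single values near 0. Python 3.11.15, numpy 2.4.6, pandas 2.3.3, scipy 1.17.1 and matplotlib 3.10.9 were used.

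Named genes were the targets past either size, the 12 highest and 12 lowest, the extremes of each gene list with at least 3 targets (up to 4 for lists with at least 6), targets in other pools and targets with a false discovery rate under 0.05 in the authors' table, 41 in all. Every other gene named was chosen after its values were seen. Members and lists were chosen with earlier results of these data known. Of the 99 names, 96 were current symbols in RefSeq (GRCh38.p14) and 3 older ones (GSG2, SGK494 and G6PC). Alternatives were other centrings, pseudocounts, minimums, summaries over guides and shares of guides. Guide sequences and coordinates were not used here, and the results of 1 target and 1 gene list are counted in the totals and otherwise not reported here.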

Additional observations from a re-analysis of the deposited data

Results flagged for a closer look

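Of the shared control sets compared over pools, 5 had a value in pool CF3 that lay far from the values of the other pools: the negative controls at 1.30, MYOD1 and FOXO1_non-fusion at 0.52 each, PAX3_non-fusion at 1.04 and PCNA at 1.34. FOXO1_non-fusion was compared over 9 pools and the others over 10. Chance sets a highest or lowest value apart in this way in about 1 in 20 groups. The KP1 values of the same sets, between -0.01 and 0.05, did not stand apart, and CF3 enters no KP1 ratio. KP1 targets were not entered in this comparison, which covered the shared control sets only.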

How the results depend on the processing

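With 1 sample per arm no sample could be left out. For most guides depth was not the limit, since the counting error had a median of 0.006 and was at most 0.088 on the log2 scale. No paired analysis was possible because each arm is 1 sample, the labels carry no shared replicate numbers and no test was made. The 0 targets past 0.3 on the MYH high side remained 0 under all alternatives run. On the MYH low side the count of 0 past 0.3 became 1, WNK1, with no centring and with centring on the negative-control guides. At 0.2 the count of 1 on the MYH high side (PLK1) became 0 with no centring and 2 from summed counts (FGFR2 and PLK1, with 80% of guides still asked for). It also became 0 without each target's extreme guide on the side of its median, the highest for medians above 0 and the lowest for others. By construction this alternative moves values only toward or past 0. The count of 1 at 0.2 on the MYH low side (WNK1) became 0 where all guides had to be on the same side. No centring moves every value by -0.07, which by construction changed the sign of 10 of the 41 named targets. Centring on negative controls moved values by -0.01 and changed 1 sign. Means over guides changed 2 signs, summed counts 1, a pseudocount of 10 CPM 1 and leaving out that extreme guide 3, all in targets near 0. Medians correlated least with those from summed counts (Pearson r of 0.718 across targets), where single abundant guides weigh more.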
